A study of Mus musculus with 12 samples.

Results

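RNA levels of 40 mitotic and DNA replication genes were followed in whole mouse liver at 3 ages. The genes were listed by name, from the cyclins and their kinases through the proteins that license and copy DNA to those that divide the chromosomes, and all 40 were found among the 28449 genes with at least 1 count. The livers came from C57BL/6N mice, 1 animal per liver, and each age had 4: young mice were 3 months old, middle-aged mice 12 months and aged mice 18 months. By the labels no genotype, drug or diet set the groups apart, and the study's methods state that its mice were male. The preparation of the 12 livers is uncertain: the labels describe RNA extraction for 4 young and 4 old livers, the design text gives 3 animals per age, and the study's methods name a public atlas as the origin of its liver expression data over age.

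A cell that enters division first turns on E2F target genes, which license replication origins with the MCM helicase, supply nucleotides and copy the DNA. Later it turns on another set of genes under FOXM1 and the MuvB complexes, which assemble the spindle and separate the chromosomes. Adult hepatocytes are mostly quiescent, so that transcripts of these genes are rare in the resting liver, where blood-derived and other non-parenchymal cells also divide. In RNA from whole tissue, fewer cells of a type and less RNA per cell cannot be told apart.

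Promoters of both kinds are known for short sequence elements, on which the members were not chosen. The E2F site binds E2F factors, the cell cycle genes homology region (CHR) binds MuvB complexes, and the CCAAT box binds NF-Y. The 120 bases from -122 to -3 relative to the annotated start are shown for 4 members with mitotic roles whose RNA is described in detail below, and for Mcm6 as a replication gene. The sequences are from RefSeq (GRCm38.p6), written 5′ to 3′ on the strand of the gene, with matches to the 3 elements in capitals. A match on the opposite strand shows as its reverse complement, so that a CCAAT box can read ATTGG and a CHR TTCAAA. The stretches lie at chr10:69352915-69353034 (minus strand, Cdk1), chr2:164769807-164769926 (plus strand, Ube2c), chr4:118437346-118437465 (minus strand, Cdc20), chr11:99024192-99024311 (minus strand, Top2a) and chr1:128359708-128359827 (minus strand, Mcm6).
Cdk1: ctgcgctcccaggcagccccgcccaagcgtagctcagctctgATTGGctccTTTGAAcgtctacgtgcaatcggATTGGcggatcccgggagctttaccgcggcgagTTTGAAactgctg
Ube2c: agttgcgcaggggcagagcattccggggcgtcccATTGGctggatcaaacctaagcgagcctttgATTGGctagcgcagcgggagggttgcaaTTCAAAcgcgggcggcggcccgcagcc
Cdc20: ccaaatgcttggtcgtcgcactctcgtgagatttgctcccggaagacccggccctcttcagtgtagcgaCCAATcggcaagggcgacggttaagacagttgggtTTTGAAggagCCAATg
Top2a: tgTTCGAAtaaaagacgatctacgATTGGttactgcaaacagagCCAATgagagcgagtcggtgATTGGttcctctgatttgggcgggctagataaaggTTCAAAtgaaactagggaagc
Mcm6: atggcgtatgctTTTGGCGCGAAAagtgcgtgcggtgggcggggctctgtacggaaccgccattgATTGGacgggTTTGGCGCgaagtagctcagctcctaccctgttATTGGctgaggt

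The letters searched on both strands were TTTGAA and TTCGAA for the CHR, CCAAT for the CCAAT box, and TTTCCCGC, TTTGGCGC, TTTCGCGC and TTTGCCGC for the E2F site. Cdk1 showed a CHR at -71 and another at -15, with CCAAT boxes at -80 and -48. In Ube2c a CHR at -29 followed CCAAT boxes at -88 and -57, and in Cdc20 a CHR at -18 lay between CCAAT boxes at -53 and -8. Top2a held 2 CHR matches and 3 CCAAT boxes in its stretch. Mcm6 held no CHR but 3 E2F matches, of which those at -110 and -106 overlap in 1 run of capitals, and CCAAT boxes at -57 and -14.

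Promoter windows of 250 bases before and 50 after the start were available for 32 members (34 windows). Aurkb, Ccna2, Ccne2, Foxm1, Gmnn, Kif20a, Mcm4 and Tpx2 had no window in this source. A CHR match was present in 11 of 14 windows of genes with mitotic roles (78.6%), here the B-type cyclins, Cdk1 and those members of the mitotic kinase and checkpoint and the chromosome and spindle groups that had a window, and in 4 of the 20 windows of the other members (20%), beside 19.2% of all 32851 windows. For the E2F site the order was the opposite, with 1 of 14 windows (7.1%) and 9 of 20 (45.0%) beside 2.3% of all windows. The 1 mitotic window was that of Cdk1, with its match at -131, outside the stretch shown. CCAAT boxes were found in 85.7% of the mitotic windows and 75.0% of the others, beside 37.4% of all. A CHR with at least 2 CCAAT boxes occurred in 8 of the 14 mitotic windows (57.1%), in 2 of the other 20 (10%) and in 2.3% of all windows. The stretches shown above are examples, and not every member given by liver is like them. The window of Ccnb1 held no CHR match, and those of Pcna, Rrm2 and Mcm2 held no E2F match. All of these are letter matches and not measured binding.

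**Figure D1:**
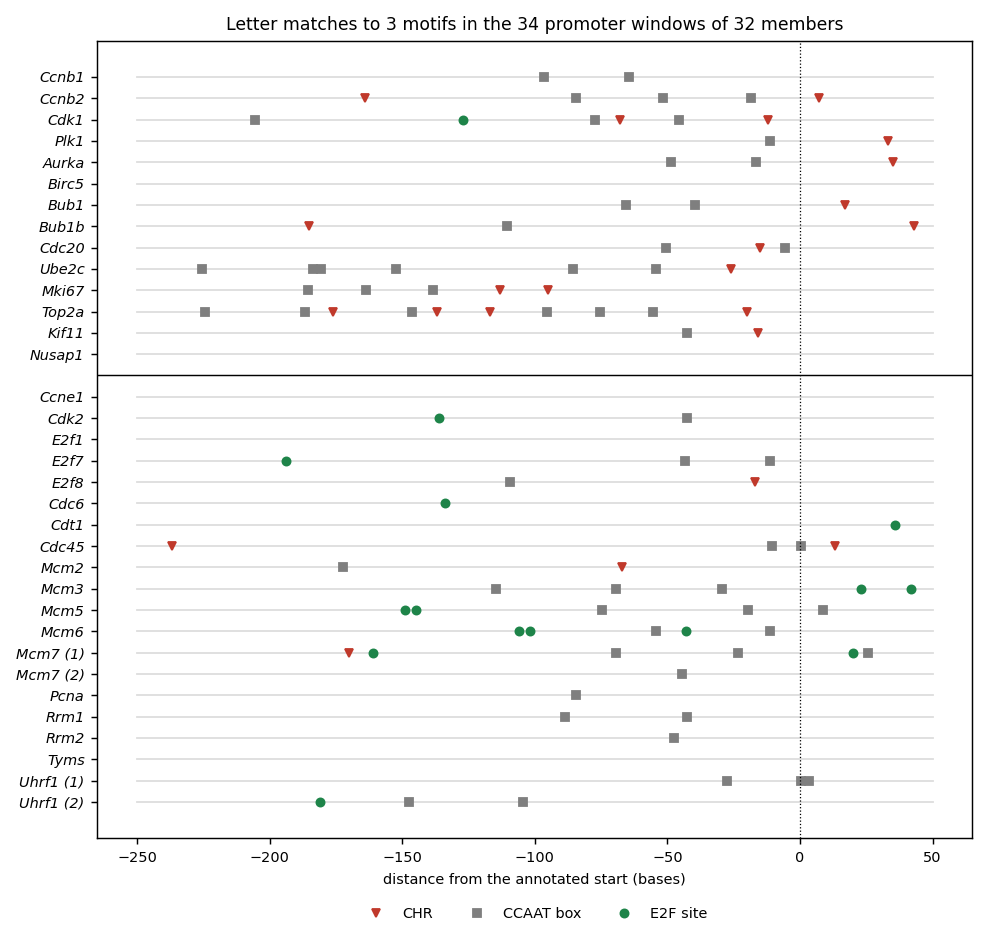
Positions of CHR (triangles), CCAAT (squares) and E2F (circles) letter matches in bases from the annotated start (dotted line) for 32 members, 2 of them (Mcm7 and Uhrf1) with 2 windows. Mitotic genes are above the line and other members below; 11 of the 14 upper windows hold a CHR match and 9 of the 20 lower windows an E2F match.

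Counts assigned to genes ranged from 8124312 (young replicate 3) to 10527159 (middle-aged replicate 2) per liver, and the 40 members together took 1018 to 1466 of them. The 95% Poisson interval of the lowest of these sums was 956 to 1083 counts and covers counting error only. Young replicate 3 and middle-aged replicate 1 stood apart, with counts on 22284 and 19982 genes, whereas the other 10 livers had counts on 16361 to 17563. Counts per kb over 1730 olfactory and vomeronasal receptor genes, which liver cells are not known to use, would account for 3.31% and 1.59% of the member counts in these livers and for 0.216 to 0.773% in the others. Levels of 31 spike-in transcripts, RNA added from outside, separated replicates 1 and 2 of every age from replicates 3 and 4 (correlations of at least 0.9968 within and at most 0.9252 between these sets). The mitochondrial share of the counts was 7.40 to 19.2% in young livers, 6.45 to 9.03% in middle-aged and 5.48 to 7.53% in aged livers. Counts divided by the library's size factor are called normalised counts below. A floor of 3 counts corresponded to 2.62 to 3.82 normalised counts.

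Most of the members were rare. The mean over the 12 livers was under 10 normalised counts for 21 members, 10 to 50 for 13 and at least 50 for 6. It ranged from 1.64 for Plk1 to 232 for Pcna. In at least 1 liver, 10 members had no count and 19 had fewer than 3. Pcna alone made up 19.67% of the members' summed counts, and with Mcm7 (10.61%), Rrm1 (8.67%), Tyms (5.88%) and Cdk2 (5.51%) it made up 50.34%. Per kb of exon, the level was highest for Pcna (96.8 normalised counts per kb), Gmnn (37.3) and Mcm7 (28.3), and lowest for Cdc6 (0.384).

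Between aged and young livers, Cdk1, the kinase that drives entry into mitosis, fell 5.65-fold, and Ube2c, the ubiquitin-conjugating enzyme of the anaphase-promoting complex, fell 6.38-fold. These were the only members past the threshold of an adjusted p under 0.05 (DESeq2, 2 of the 35 members that received an adjusted p), where 3.58% of all 13527 genes with an adjusted p passed it and 1.71% passed it with a lower level in aged livers. No member rose. Before adjustment, 10 of the 40 members had a DESeq2 p under 0.05 with a lower level in aged livers, and 0 with a higher one. Among the 10457 genes with a mean in the range of the members, these shares were 5.55% and 4.82%. The estimate was below 0 for 35 of the 40 members, beside 53.0% of the genes in that range, and the median log2 fold change was -0.57 beside -0.02. The genes in that range were not matched to the members by level within it. Every aged liver was below every young liver for 6 members (Cdk1, Ube2c, Cdc20, Top2a, Mcm5 and Mcm6), beside 3.12% of the genes in that range. The 5 members with a higher estimate in aged livers were Cdk2, E2f8, Mcm4, Mcm7 and Aurka, none of which passed the threshold.

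**Figure D2:**
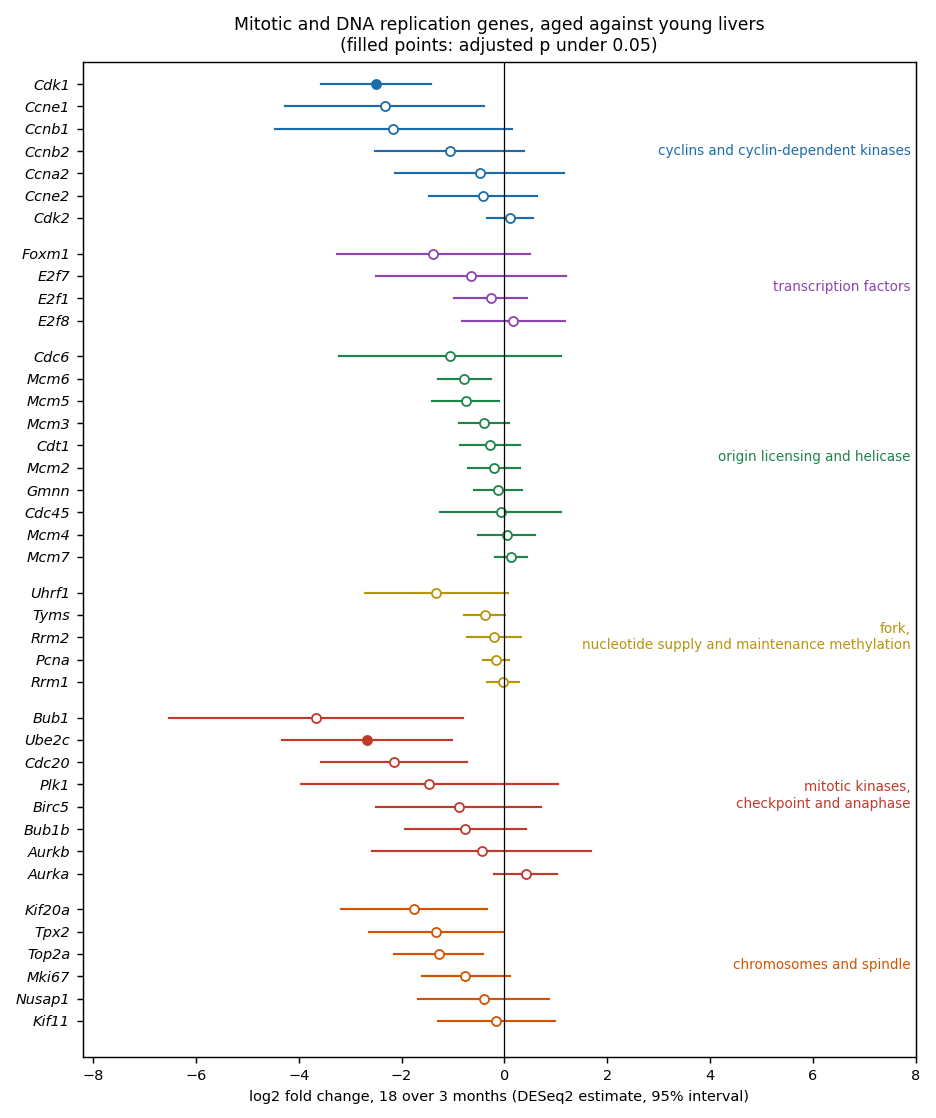
DESeq2 log2 fold change of each member, aged over young, with its 95% interval (horizontal bars), grouped by role; filled points passed an adjusted p under 0.05. Cdk1 and Ube2c are the filled points, and 35 of the 40 estimates lie left of 0.

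The cyclins and their kinases set the order of the cycle. Cdk1 (chromosome 10, 69335146 to 69352938, minus strand, GRCm38) had 14.9, 21.6, 22.5 and 24.4 normalised counts in the young livers, 6.95, 12.6, 4.42 and 7.02 in the middle-aged and 2.01, 1.93, 5.24 and 5.36 in the aged. All 4 young livers were above all 8 older ones, while the middle-aged and aged livers overlapped. The log2 fold change was -2.50 ± 0.54 (SE) in aged against young livers, with a DESeq2 adjusted p of 0.000656. Within replicates 1 and 2 it was -3.21 and within replicates 3 and 4 -2.15, with unadjusted DESeq2 p of 0.00567 and 0.0294 and no adjusted p. Across the 3 ages the DESeq2 likelihood ratio test gave an adjusted p of 0.000368 for Cdk1, the only member called of the 25 with an adjusted p, where 6.96% of 12430 genes were called. Against young livers the middle-aged ones were 2.69-fold lower (log2 -1.43 ± 0.48), a difference to which DESeq2 gave an unadjusted p of 0.00274 and, because of its filter on low means, no adjusted one.

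Cdk1 acts with the A- and B-type cyclins. Ccnb1, cyclin B1, had 1.06, 3.82, 3.55 and 3.91 normalised counts in young livers, 2.98, 1.80, 5.30 and 3.01 in middle-aged livers, and 0, 0, 1.75 and 0.89 in aged livers. Young replicate 1 overlapped with the aged livers, and all 4 aged livers were below the middle-aged ones. With 3 counts over all aged livers and 11 over the young, the ratio was 0.228 with an exact 95% counting interval of 0.0409 to 0.864. This interval covers counting error only and not the spread between livers. The log2 fold change of aged over young was -2.16 ± 1.17, with an unadjusted DESeq2 p of 0.0657 and no adjusted one. Ccnb2, cyclin B2, and Ccna2, cyclin A2, ranged from 0.96 to 13.2 normalised counts, and both peaked in middle-aged replicate 3, which had the highest value of 11 of the 40 members. The counts of Ccna2 are uncertain, since 12.5% of its exon bases also lie in exons of Exosc9 on the other strand.

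The E-type cyclins activate Cdk2 at the start of replication. Ccne1, cyclin E1, had 8.49, 16.6, 7.11 and 0.98 normalised counts in young livers, 6.95, 4.49, 3.53 and 0 in middle-aged livers and 2.01, 0.96, 2.62 and 0.89 in aged livers. Young replicate 4 was as low as the aged livers, and the log2 fold change of -2.33 ± 0.99 had a DESeq2 adjusted p of 0.185. Ccne2, cyclin E2, had 9.55, 7.64, 11.8 and 4.88 in young livers, 14.9, 8.98, 13.2 and 8.02 in middle-aged and 6.02, 9.63, 4.37 and 5.36 normalised counts in aged livers. All 3 ages overlapped (log2 fold change of aged over young -0.41 ± 0.53). The counts of Ccne2 are uncertain where 17.4% of its exon bases also lie in exons of Ints8 on the other strand. Cdk2 itself averaged 58.2 ± 10.3 (SD, n = 4) in young livers, 74.7 ± 7.94 in middle-aged and 62.6 ± 15.4 in aged livers, with a log2 fold change of 0.10 ± 0.23 between the oldest and youngest.

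Among the transcription factors, Foxm1, the activator of the mitotic gene set, had 1.06, 8.92, 7.11 and 4.88 normalised counts in young livers. It had 0, 2.69, 6.18 and 3.01 in middle-aged and 1.0, 3.85, 2.62 and 0.89 in aged livers. The ages overlapped, and the log2 fold change of aged over young was -1.38 ± 0.95. E2f8, a repressor of the E2F family, had 58.4, 35.7, 13.0 and 20.5 in young livers, 48.6, 18.0, 18.5 and 52.1 in middle-aged and 16.1, 36.6, 44.6 and 46.5 normalised counts in aged livers. E2f8 varied widely among livers of the same age, and its log2 fold change was 0.17 ± 0.51. E2f1, an activator, averaged 42.1 ± 19.1 (SD, n = 4) in young and 34.9 ± 8.54 in aged livers, and E2f7, the other repressor, stayed between 0 and 7.64 normalised counts. Exons of E2f8 share 11.2% of their bases with Gm2788 on the other strand.

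Origin licensing loads the MCM2 to MCM7 ring onto DNA with the help of Cdc6 and Cdt1. Mcm6 had 56.3, 66.2, 47.4 and 65.4 normalised counts in young livers, 32.8, 65.5, 54.8 and 40.1 in middle-aged and 35.1, 28.9, 41.1 and 31.3 in aged livers. Mcm5 had 37.1, 45.9, 30.8 and 44.9, then 22.8, 32.3, 46.8 and 16.0, then 26.1, 23.1, 22.7 and 22.4 normalised counts in young livers, middle-aged and aged livers. For both helicase subunits the aged livers lay below all young ones, and the middle-aged livers reached both. The difference did not pass the threshold for either, with log2 fold changes of -0.79 ± 0.26 for Mcm6 (DESeq2 adjusted p = 0.0703) and -0.75 ± 0.33 for Mcm5 (adjusted p = 0.206).

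The other subunits of the ring overlapped between ages. Mcm2 had 34.0, 36.9, 30.8 and 54.7 normalised counts in young livers, 37.7, 46.7, 47.7 and 45.1 in middle-aged and 34.1, 27.0, 36.7 and 38.4 in aged livers, with a log2 fold change of aged over young of -0.21 ± 0.26. That of Mcm3 was -0.40 ± 0.25, of Mcm4 0.05 ± 0.28 and of Mcm7 0.13 ± 0.16. Mcm7 hosts the microRNA genes Mir25 and Mir93, and exons of other genes cover 3.9% of its exon bases on the same strand and 8.7% on the other.

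Cdt1, the loader that is destroyed once replication begins, was even in the young livers at 25.5, 26.8, 24.9 and 26.4 normalised counts. It had 16.9, 26.9, 25.6 and 27.1 in middle-aged and 27.1, 21.2, 16.6 and 20.6 in aged livers, a log2 fold change of aged over young of -0.28 ± 0.30. Gmnn, the inhibitor of Cdt1, averaged 53.0 ± 8.76 (SD, n = 4) in young livers, 62.0 ± 11.2 in middle-aged and 48.8 ± 11.0 in aged livers. Cdc6 had at most 5.09 normalised counts in any liver, and Cdc45, which joins the MCM ring to form the active helicase, had 2.68 to 15.7.

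At the replication fork, Pcna, the sliding clamp of the DNA polymerases, had 254, 267, 257 and 227 normalised counts in young livers, 210, 271, 209 and 195 in middle-aged and 243, 219, 198 and 237 in aged livers. The ages overlapped, and the log2 fold change of aged over young was -0.16 ± 0.13. Of the ribonucleotide reductase subunits, which make deoxynucleotides, Rrm2 had 52.0, 44.6, 36.7 and 36.1 in young livers, 61.6, 63.7, 42.4 and 49.1 in middle-aged and 23.1, 38.5, 46.3 and 38.4 normalised counts in aged livers. Rrm2 was thus numerically highest in middle-aged livers, with a log2 fold change of aged over middle-aged of -0.56 ± 0.26 (DESeq2 adjusted p = 0.415). Its partner Rrm1 differed little in mean, at 101 ± 10.4 (SD, n = 4) in young livers, 107 ± 11.3 in middle-aged and 99.4 ± 10.5 in aged livers. Tyms, thymidylate synthase, averaged 82.0 ± 11.7, 63.6 ± 8.82 and 62.8 ± 11.6, and Uhrf1, which guides maintenance methylation of new DNA, 7.59 ± 2.63, 5.55 ± 2.83 and 3.00 ± 1.93. Tyms did not pass the threshold in any comparison. Uhrf1 did not pass it in aged against young livers and received no adjusted p in the other comparisons.

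The kinases and ubiquitin enzymes of mitosis were rare at all ages. Ube2c (chromosome 2, 164769898 to 164778822, plus strand) had 12.7, 12.7, 11.8 and 10.7 normalised counts in young livers, 0, 7.18, 14.1 and 9.02 in middle-aged and 3.01, 1.93, 0 and 2.68 in aged livers. All aged livers lay below all young ones, and the middle-aged livers spanned both. Its log2 fold change was -2.67 ± 0.84, with a DESeq2 adjusted p of 0.0457, close to the threshold. The call was lost without young replicate 2, 3 or 4 (DESeq2 adjusted p = 0.149, 0.0961 and 0.0837), middle-aged replicate 2 or 4 (0.0746 and 0.0730), or aged replicate 2, 3 or 4 (0.117, 0.179 and 0.0948). Without young replicate 1 no adjusted p was given, and log2 fold changes over all settings with an adjusted p ran from -2.98 to -2.24. The call was also lost by edgeR (adjusted p = 0.0979), with the spike-in set as a covariate (DESeq2 adjusted p = 0.0578) and with the replicate number as a block (0.172). Within replicates 1 and 2 the log2 fold change was -2.37 and within replicates 3 and 4 -3.08, with unadjusted DESeq2 p of 0.0955 and 0.0297. Reads of Ube2c cannot be separated with certainty from those of Tnnc2, whose exons on the other strand cover 22.8% of its exon bases, since the strand setting of the counting was not given in the sources used here.

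Cdc20, the activator that the anaphase-promoting complex needs for chromosome separation, was chosen for values by liver after they were seen and had 7.43, 6.37, 15.4 and 15.6 normalised counts in young livers. It had 0.99, 8.98, 5.30 and 8.02 in middle-aged livers and 1.0, 2.89, 3.5 and 2.68 in aged livers, again with no overlap between the youngest and oldest. Its log2 fold change of -2.15 ± 0.72 did not pass (DESeq2 adjusted p = 0.0706), but did without middle-aged replicate 1 (0.0457). Bub1, a kinase of the spindle checkpoint, had 13 counts over the young, 8 over the middle-aged and 1 over the aged livers. The aged-to-young ratio was 0.0644 with an exact 95% counting interval of 0.00151 to 0.428, which covers counting error only. The young livers had 2, 0, 7 and 4 counts, so that young and aged livers overlapped. The 7 were in young replicate 3, which had counts on extra genes. Plk1, Polo-like kinase, had 12, 2 and 5 counts over the 3 ages in the same order. Bub1b averaged 9.72 ± 3.98 (SD, n = 4), 8.87 ± 2.01 and 5.80 ± 4.17, and Birc5, survivin, a partner of Aurora B, 5.72 ± 4.94, 6.93 ± 3.53 and 3.10 ± 2.71. Aurkb, Aurora B, stayed between 0 and 4.47 normalised counts, and Aurka, Aurora A, was numerically higher in older livers, at 22.5 ± 6.31, 29.7 ± 4.51 and 29.8 ± 7.27.

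Proteins of the chromosomes and the spindle completed the list. Top2a, the topoisomerase that untangles sister chromatids, had 19.1, 29.3, 20.1 and 34.2 normalised counts in young livers, 9.93, 12.6, 17.7 and 16.0 in middle-aged and 9.03, 3.85, 17.5 and 11.6 in aged livers. As for Cdk1, all young livers were above all older ones. The log2 fold change was -1.28 ± 0.44 in aged livers (DESeq2 adjusted p = 0.0755) and -0.87 ± 0.42 in middle-aged livers (adjusted p = 0.203). In aged livers Top2a passed the threshold with the spike-in set as a covariate (DESeq2 adjusted p = 0.0446) and without aged replicate 3 (0.0411). Mki67, the marker of dividing cells, had 15.9, 29.3, 27.2 and 37.1 in young livers, 6.95, 18.0, 29.1 and 25.1 in middle-aged and 16.1, 14.4, 22.7 and 11.6 normalised counts in aged livers. Young replicate 1 lay among the older livers, and the log2 fold change of aged over young was -0.76 ± 0.44 (adjusted p = 0.408).

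Of the spindle motors and their partners, Kif20a averaged 11.6 ± 6.14 (SD, n = 4) in young livers, 4.22 ± 1.67 in middle-aged and 3.48 ± 3.20 in aged livers. Its 29.3% of exon bases shared with Cdc23 on the other strand make its counts uncertain. Tpx2, which activates Aurora A on the spindle, averaged 9.31 ± 7.37, 5.41 ± 0.796 and 3.67 ± 1.14. Kif11 (7.5, 9.88 and 6.72) and Nusap1 (9.75, 10.6 and 7.26) were numerically highest in middle-aged livers, and all ages overlapped for both.

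**Figure D3:**
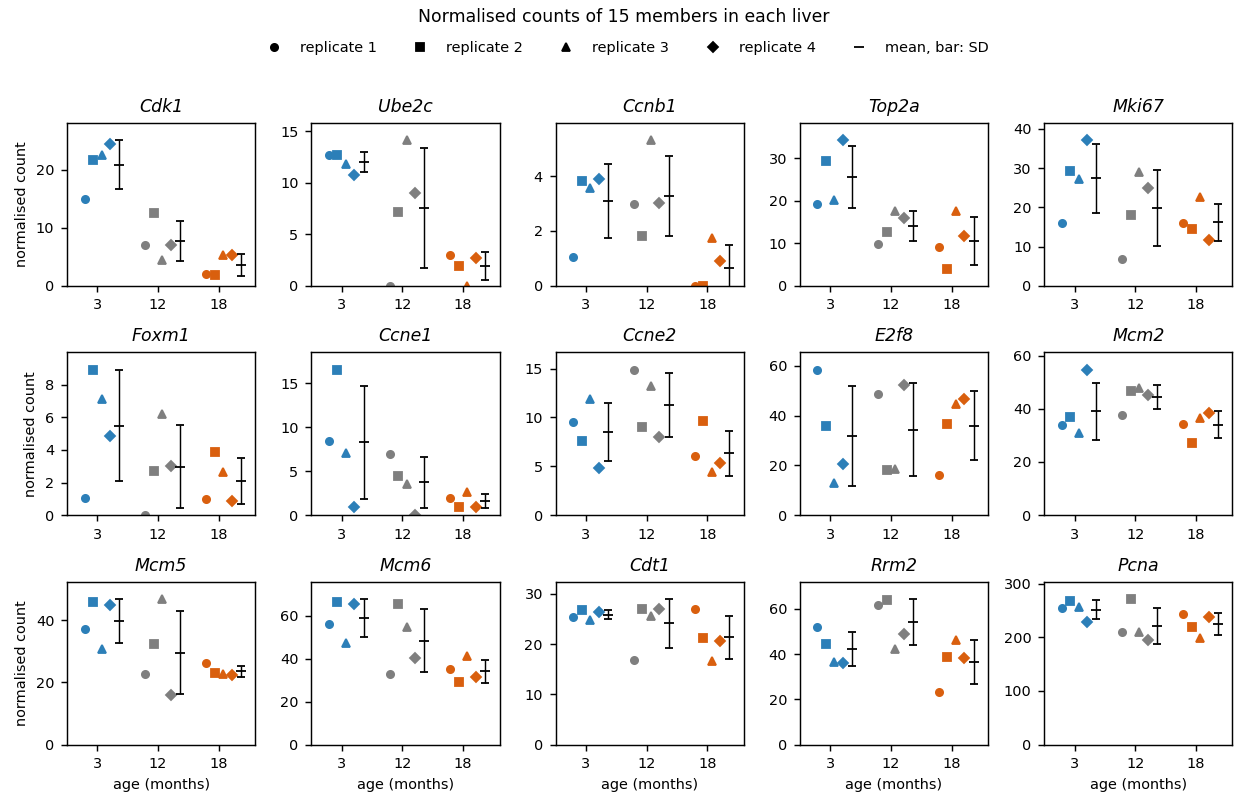
Normalised counts of 15 members in each liver against age in months, with marker shape for the replicate number and bars for mean and SD. The 4 young livers are above all 8 older livers for Cdk1 and Top2a, whereas the ages overlap for Pcna, E2f8 and Mcm2.

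**Figure D4:**
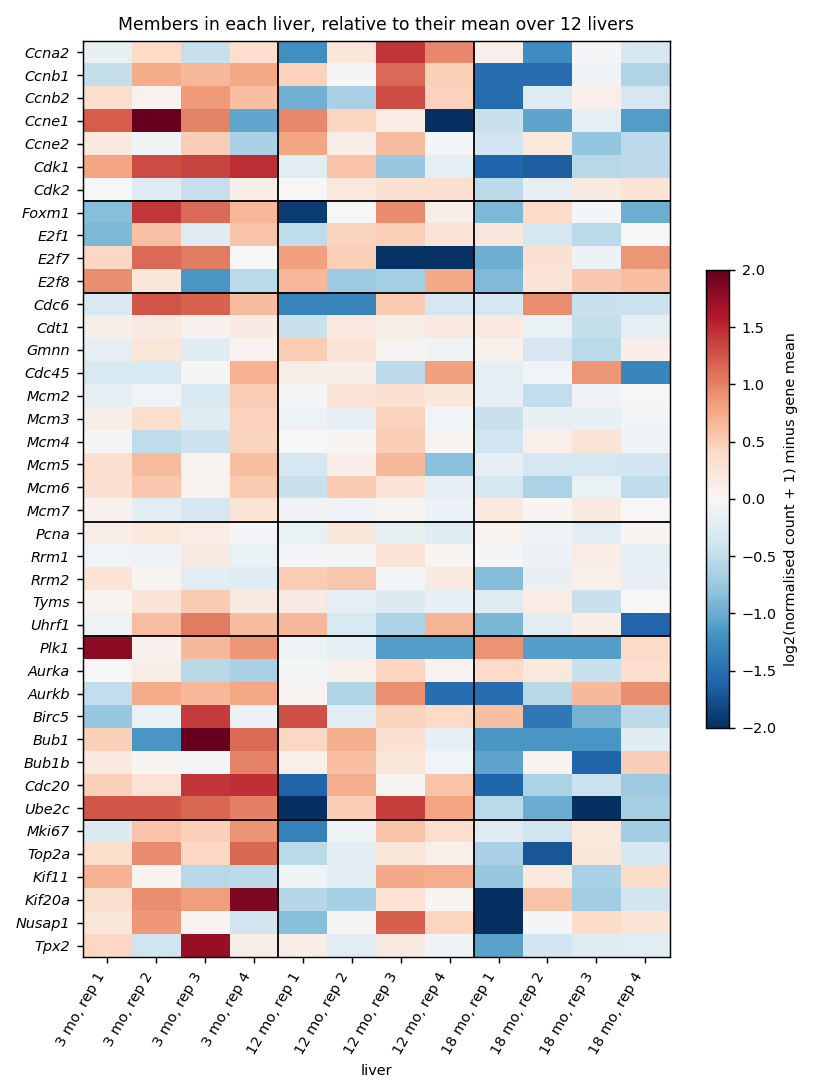
Each member in each liver as log2(normalised count + 1) minus the mean of that member over 12 livers, limited to the range from -2 to 2, with members in rows by role and livers in columns by age. Young livers are mostly red for the mitotic members in the lower blocks and aged livers mostly blue, while the rows of Pcna, Rrm1 and Mcm7 are pale throughout.

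Because single members were so rare, their summed level was also taken. The sum over all 40 members was 1234.5, 1322.0, 1206.2 and 1354.1 normalised counts in young livers, 1118.0, 1244.4, 1294.5 and 1160.6 in middle-aged and 1023.6, 1033.6, 1074.0 and 1111.1 in aged livers. On this scale the aged livers were below all young and all middle-aged livers, and the young and middle-aged livers overlapped. Scaled by total gene counts instead, aged replicate 3 lay above young replicate 2 and middle-aged replicate 1, so this separation was lost. The log2 ratio of mean sums was -0.27 for aged over young livers and -0.18 for aged over middle-aged livers. Within the sets of replicates the log2 ratio of aged over young was -0.31 for replicates 1 and 2 and -0.23 for replicates 3 and 4. The members with a mean under 50 normalised counts summed to 612 ± 64.8 (SD, n = 4) in young livers, 556 ± 69.2 in middle-aged and 429 ± 38.1 in aged livers, a log2 ratio of aged over young of -0.51. These sums are descriptions with no test. With total gene counts in place of size factors, the median of all genes moved by 0.12 on the log2 scale between aged and young livers and the sum changed by -0.15, which is -0.27 relative to that shift. Size factors are set to take off such a shift, so this last value restates the main one and is not separate support.

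By role, the 14 members of the mitotic kinase and checkpoint and the chromosome and spindle groups, here without the cyclins and Cdk1, summed to 138.0, 160.5, 169.4 and 181.6 normalised counts in young livers, 88.4, 116.7, 168.7 and 134.3 in middle-aged and 84.3, 91.5, 91.8 and 110.8 in aged livers. The aged livers were below all young ones, and the mean ratio was 0.583 (log2 -0.78), or -1.11 on the log2 scale without Aurka, the member of this group with the highest level. Within replicates 1 and 2 alone the log2 ratio of all 14 was -0.76 and within replicates 3 and 4 -0.79, which are the sets set apart by the spike-in transcripts. The cyclins and their kinases summed to 110 ± 5.92 (SD, n = 4), 113 ± 13.4 and 81.1 ± 18.1 in young livers, middle-aged and aged livers. On this scale the aged livers were below all others. Scaled by total gene counts, aged replicate 3 lay above young replicates 1, 2 and 3, so this separation was lost. Cdk2 made up most of the cyclin and kinase sum. The log2 ratio of aged over young was -0.44 with Cdk2, -1.49 without it, and -0.74 and -0.19 within the sets of replicates. Sums of the licensing genes (438 ± 71.3, 427 ± 43.1 and 383 ± 15.3) and of the transcription factors (85.0 ± 21.1, 84.8 ± 11.0 and 76.4 ± 11.9) overlapped between all ages. The genes of the fork and nucleotide supply summed to 484 ± 33.0, 452 ± 34.8 and 426 ± 9.09. With size factors all aged livers were below all young ones (log2 -0.18). With total gene counts as the scale the log2 ratio was -0.07. Aged replicates 2, 3 and 4 then lay above young replicate 2, so the ages overlapped. Median log2 fold changes of aged over young were -1.06 for the cyclins and kinases, -1.17 for the mitotic kinases and checkpoint, -1.02 for chromosomes and spindle, -0.46 for the transcription factors, -0.24 for licensing and -0.20 for the fork. No test compared the roles with each other.

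**Figure D5:**
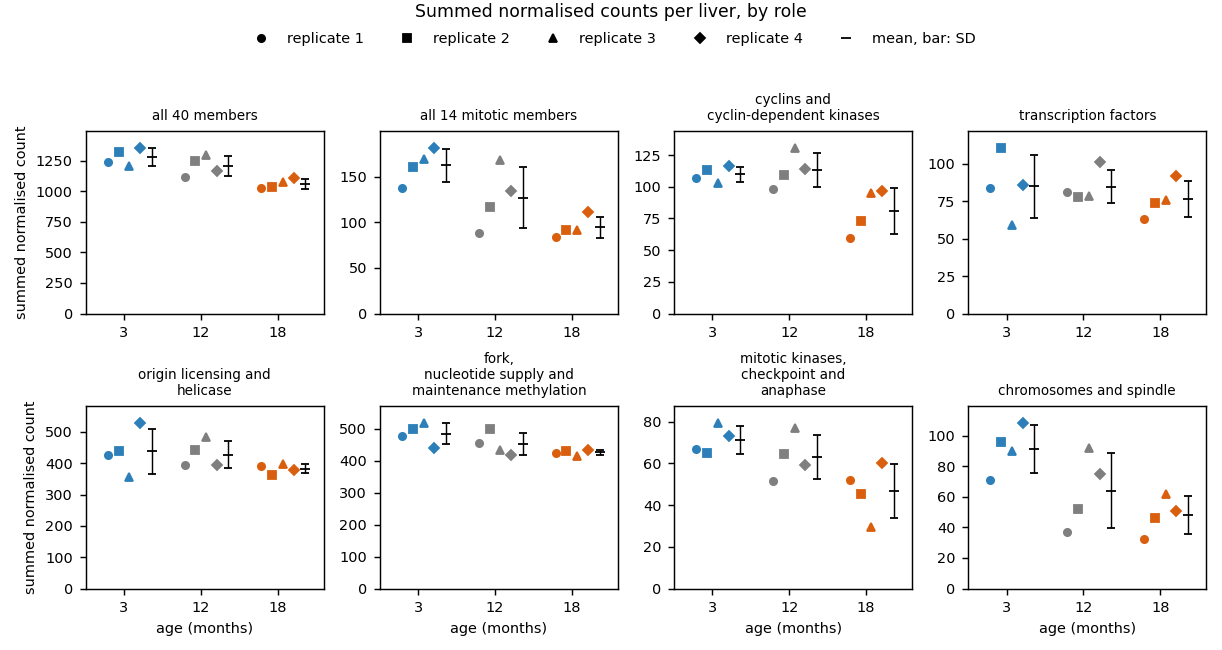
Summed normalised counts of all members and of each role in each liver against age in months, with marker shape for the replicate number and bars for mean and SD. The 4 aged livers, between 1023.6 and 1111.1 for all members, sit below the 4 young livers, between 1206.2 and 1354.1. Scaled by total gene counts, which is not drawn, aged replicate 3 lay above young replicate 2.

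Marker genes of other cells were read in the same livers. The sum of 9 T and NK cell markers was 72.2 to 116 normalised counts in young livers, 61.9 to 80.4 in middle-aged and 38.5 to 45.2 in aged livers, with 0 of 9 called and with Cd3d, Cd8a, Nkg7 and Klrb1c at 0 in some livers. The sum of 8 erythroid markers was 18926 to 67541, 10873 to 40384 and 8185 to 17555, and Hbb-bs, Alas2 and Tfrc were called lower in aged livers. Both lists were lower in all aged livers than in all young ones, as the mitotic sum was, and their part in the result was not tested. The young and aged ranges overlapped for the B and plasma cell list (2242 to 3533 and 1777 to 2398). They overlapped for the Kupffer cell list (2682 to 4570 and 2834 to 4563), where Marco was called higher. The neutrophil list (27.3 to 262 and 11.4 to 88.3) and the endothelial list (1493 to 2512 and 1751 to 1902) overlapped as well. So did the stellate list (1412 to 3177 and 1691 to 3253) and the cholangiocyte list (280 to 354 and 226 to 418). Sox9 of the cholangiocyte list was called higher. The 6 hepatocyte markers were present in every liver, with 0 of 6 called. They summed to 713792 to 785062 in young livers, 736161 to 825694 in middle-aged and 745778 to 969562 in aged livers. The ages overlapped, with the highest sums in aged livers.

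Between middle-aged and young livers, 0 members were called by DESeq2 (18 received an adjusted p) or by edgeR, where 6.41% of 11333 genes were called by DESeq2. Before adjustment 3 of the 40 members had a DESeq2 p under 0.05 with a lower level in middle-aged livers (Cdk1, Top2a and Kif20a) and 0 with a higher one, beside 5.31% and 6.12% of genes in the same range of means. The estimate was below 0 for 24 members, beside 49.4%, with a median of -0.16. All middle-aged livers were below all young ones for 4 members (Cdk1, Top2a, Kif20a and Plk1), beside 3.83%.

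Between aged and middle-aged livers, 0 members were called by DESeq2 (15 received an adjusted p) or by edgeR, where 1.14% of 10236 genes were called by DESeq2. Rrm2 and Ube2c had an unadjusted DESeq2 p under 0.05, both lower in aged livers, which is 2 of 40 beside 3.76%. The estimate was below 0 for 33 members, beside 54.2%, with a median of -0.37. All aged livers were below all middle-aged ones for 3 members (Ccnb1, Bub1 and Tpx2), beside 2.61%. Each age enters 2 of the 3 comparisons, which are therefore not independent of each other.

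A list of 113 other genes of the same pathway was read in the same fit. Between aged and young livers 0 of the 90 with an adjusted p were called by DESeq2, where 3.58% of all genes were, and 0 by edgeR. An unadjusted DESeq2 p under 0.05 was reached by 11 of the 113 with a lower and by 1 with a higher level in aged livers, beside 4.39% and 4.2% of the 21903 genes in the range of means of this list. The estimate was below 0 for 88 of the 113 (median -0.23), beside 60% of the genes in that range (median -0.12). By branch, this held for 44 of 48 genes of mitosis (median -0.49), 29 of 44 of DNA replication (median -0.13) and 15 of 21 of the control of G1 and the E2F or MuvB complexes (median -0.12). No share of genes at the level of each branch was taken. Some rare genes of mitosis, such as Kif15 and Nuf2, were highest in young replicate 3, which had counts on extra genes. Others, such as Nek2, were highest elsewhere. The branches were not counted again without that liver.

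Wee1 and Ccnf were the pathway genes called in any comparison. Wee1, the kinase that holds Cdk1 inactive, had 12.7, 20.4, 24.9 and 16.6 normalised counts in young livers, 81.4, 71.8, 32.7 and 59.1 in middle-aged and 19.1, 15.4, 22.7 and 17.0 in aged livers. All middle-aged livers were above all others. Wee1 rose by 1.72 ± 0.35 (SE) on the log2 scale from young to middle-aged livers (DESeq2 adjusted p = 0.000147) and fell by 1.72 ± 0.34 from middle-aged to aged (adjusted p = 0.000303), so that aged and young livers differed by 0.00 ± 0.37. Within replicates 3 and 4 alone the log2 fold change of aged over middle-aged was -1.20 (DESeq2 adjusted p = 0.686).

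Ccnf, cyclin F, which targets proteins for destruction in G2, had 128, 206, 284 and 286 normalised counts in young livers, 128, 141, 130 and 102 in middle-aged and 159, 192, 142 and 156 in aged livers. Young replicate 1 lay within the older livers. Ccnf fell by 0.85 ± 0.23 on the log2 scale in middle-aged livers (DESeq2 adjusted p = 0.00830). The call was lost without young replicate 3 (DESeq2 adjusted p = 0.0629) or young replicate 4 (0.0554). Ccnf also lost its call without both libraries with extra genes (log2 fold change -0.74, DESeq2 adjusted p = 0.124). Within replicates 1 and 2 alone its log2 fold change was -0.31 (DESeq2 adjusted p = 0.984).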

How the data were processed

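RNA-seq counts per gene were analysed for 12 whole livers, 4 per age. The authors deposited raw counts, whole numbers per Ensembl gene, for each library. The submitters' processing notes name STAR 2.5.2b, SAMtools 1.9, featureCounts, R 3.6.3, edgeR 3.28.1, DESeq2 1.26.0 and the build mm10 (GRCm38), with no order of use, and the strand setting of the counting was not given in the sources used here. Depth was 8124312 to 10527159 counts per liver, and spike-in rows were kept out of library sizes and tests. Replicates of 1 age differed by more than sampling noise, and whether they share a litter or a batch was not given, so p-values measure the spread between these livers.

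Counts were fitted in DESeq2 1.42.0 (R 4.3.3) for all 12 livers with age as the only term and median-of-ratios size factors. Wald tests compared pairs of ages and a likelihood ratio test all 3. The p-values were adjusted by Benjamini-Hochberg over all genes, with independent filtering at 0.1, and a call needed an adjusted p under 0.05. Genes under the filter have no adjusted p. The ± after a log2 fold change is its standard error. The quasi-likelihood test of edgeR 4.0.16, TMM factors, a filter of 10 counts in 4 livers, no independent filtering, fits of the ages compared, the replicate number as a block, the spike-in set and leaving out livers were alternatives. The code was tested on simulated counts.

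Every called member and Mki67, Top2a, Cdk1, Ccnb1, Ccne1, Ccne2, Mcm2, Mcm5, Mcm6, Pcna, Rrm2, Cdt1, Foxm1 and E2f8 are given by liver, the other members by level or range, and other pathway genes where called. The members, the lists and this rule were chosen with earlier results of these data known. Exon overlap was read from the GRCm38 gene annotation.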

Additional observations from a re-analysis of the deposited data

Results flagged for a closer look

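In 3 of 75 groups of 4 livers, 1 liver lay far from the other 3 by Dixon's ratio, where chance at 1 in 20 would give 3.75. Ccnb1 had 1.06 normalised counts in young replicate 1 and 3.55 to 3.91 in the other young livers. Cdt1 had 16.9 in middle-aged replicate 1 and 25.6 to 27.1 in the others of that age. The summed level of the transcription factors was 101 in middle-aged replicate 4 and 78.1 to 81.4 in the others of that age. Outside the gene counts, spike-in transcripts took from 1.59 to 10.6% of a library.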

How the results depend on the processing

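Of the 2 members called lower in aged than in young livers, Cdk1 was called in all 20 alternatives that gave it an adjusted p (DESeq2 or edgeR, adjusted p 0.000379 to 0.0147) and Ube2c in 6 of 18 (0.00826 to 0.179). The count was 1 by edgeR, with at least 10 counts in 4 livers, without independent filtering and with the replicate block, 0 within replicates 1 and 2 and 0 within replicates 3 and 4, where fewer livers entered, and 1 to 3 with 1 liver left out. It was 3 without middle-aged replicate 1, where Cdc20 joined, and 2 with the spike-in set as a covariate or without aged replicate 3, where Top2a stood in place of Ube2c. In middle-aged against young livers the count rose from 0 to 1 (Cdk1) with TMM factors and with the filter of 10 counts, and between aged and middle-aged livers it was 0 in all 22 alternatives. Over the 3 ages it was 0 within either set of replicates, 2 without middle-aged replicate 1 or without both libraries with extra genes (Cdk1 and Ube2c), and 1 to 2 with 1 liver left out. Without aged replicate 3 the 1 call was Top2a, and Cdk1 (unadjusted DESeq2 p 1.57e-05) received no adjusted p. Of the other pathway genes, 1 in place of 2 was called over the 3 ages by edgeR. Ccnf kept its call over the 3 ages in 12 of 21 alternatives, and in middle-aged against young livers in 18 of 22.

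The log2 ratio of the member sum, aged over young, was -0.153 with total gene counts and -0.513 for members with a mean under 50, and -0.298 to -0.242 with 1 liver left out. Middle-aged over young it was 0.024 with total gene counts, a change of sign, and -0.123 to -0.053 with 1 liver left out. Aged over middle-aged it was -0.374 for members under 50 and -0.217 to -0.147 with 1 liver left out. Over all genes, calls ran from 137 to 1291 (main count 484) for aged against young, 251 to 1166 (727) for middle-aged against young, 13 to 426 (117) for aged against middle-aged and 234 to 1637 (865) over 3 ages. Same-numbered livers did not deviate together (correlations -0.303 to 0.159), so the replicate numbers were not taken as pairs, although replicates 1 and 2 share a spike-in set that differs from that of replicates 3 and 4. Most members had too few counts for small changes to be detectable at this depth.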
